A study of Homo sapiens with 2 samples.

Results

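Peaks of Musashi-2 (MSI2) binding were examined on 8 human genes of microRNA processing, microRNA silencing and RNA decay: AGO2 (ENSG00000123908.7), DICER1 (ENSG00000100697.10), DROSHA (ENSG00000113360.12), TNRC6A (ENSG00000090905.13), TNRC6B (ENSG00000100354.15), XRN1 (ENSG00000114127.6), UPF1 (ENSG00000005007.8) and CNOT1 (ENSG00000125107.12). The members were all peaks listed under the Ensembl gene IDs of these genes in either of 2 peak lists. They numbered 63 of 25920 peaks in replicate 1 and 73 of 25243 in replicate 2, or 136 of 51163 in all. The 8 gene IDs were among 8801 with a peak in either list. MSI2 is an RNA-binding protein, and its sites were mapped by CLIP-seq, in which ultraviolet light links proteins to the RNA they touch and an antibody recovers the protein with its RNA fragments. Both libraries came from NB4, an established human acute promyelocytic leukaemia cell line, and belonged to 1 group. The labels give both the same cell number, the same ultraviolet dose (400 mJ per square centimetre) and the same Abcam anti-MSI2 antibody. No genotype or treatment separated the libraries, and no input, control antibody or MSI2-depleted library was analysed here.

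MicroRNAs are made in steps. DROSHA, a nuclear RNase III enzyme, cuts the primary transcript, and DICER1, a related enzyme in the cytoplasm, cuts the resulting hairpin to the mature length. AGO2 holds the mature microRNA and pairs it with target mRNAs, and the GW182 proteins TNRC6A and TNRC6B link AGO proteins to the deadenylation machinery. CNOT1 is the scaffold of the CCR4-NOT complex, which shortens poly(A) tails. XRN1 is the exonuclease that degrades decapped mRNA from its 5′ end, and UPF1 is the helicase at the centre of nonsense-mediated decay.

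The last number in the name of a peak, its tally, was 3 or more throughout. It behaves like a read number, though neither headers nor labels define it. Tallies over all peaks summed to 155598 in replicate 1 and 133644 in replicate 2, and the sequencing depth of the libraries is unknown. Every peak had a deposited p under 0.05, which is the authors' own value for that peak. The replicates are numbered in the labels without saying that they came from separate cultures, so a difference between them may be technical. A peak can be listed only where an RNA is expressed, recovered and read often enough, so stronger binding and more RNA of a gene cannot be told apart. Positions are hg19 coordinates, counted from 1.

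The 8 genes carried very different numbers of peaks. CNOT1 had 19 peaks in replicate 1 and 30 in replicate 2, which were 30.2% and 41.1% of all peaks of the 8 genes. Only 53 of 7252 gene IDs in replicate 1, and 11 of 7101 in replicate 2, had as many peaks as CNOT1 or more, counting CNOT1 itself. TNRC6B had 10 and 15 peaks, and DICER1 had 10 in each list. DROSHA had 9 and 6, TNRC6A had 8 and 2, XRN1 had 5 and 4, AGO2 had 1 and 6, and UPF1 had 1 in replicate 1 and none listed in replicate 2. Most genes of the set thus differed in count between the libraries, in either direction, with DICER1 level.

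Scaled to 10000 peaks of its list, CNOT1 held 7.33 and 11.9 peaks, above every other member in both libraries. TNRC6B followed with 3.86 and 5.94, and DICER1 had 3.86 and 3.96. These neighbours were equal in replicate 1, so their order rests on replicate 2. DICER1 stood above DROSHA (3.47 and 2.38) in both libraries, whereas the ranges of DROSHA, TNRC6A (3.09 and 0.79), XRN1 (1.93 and 1.58) and AGO2 (0.39 and 2.38) overlapped each with the next. UPF1 had 0.39 and 0. By tallies per 10000 of the list's sum, CNOT1 again led with 6.88 and 8.68, while DICER1 (3.79 and 4.12) and TNRC6B (2.31 and 4.27) overlapped. The order shifts when length is taken into account. Per 10 kb between a gene's first and last peak in either library, CNOT1 had 2.88 and 4.55 peaks and DICER1 2.55 in each. AGO2 (0.41 and 2.45) and TNRC6A (2.22 and 0.55) came near DICER1 in 1 library each. Both ends of the AGO2 span were set by replicate 2 peaks with a tally of 3, so 0.41 is its 1 replicate 1 peak over that span. TNRC6B, with the longest span, had 0.36 and 0.53, DROSHA had 0.70 and 0.47, and XRN1 had 0.47 and 0.38. The TNRC6B span runs from 1 replicate 2 peak at 40451117 (tally 3), 210079 nt from the nearest replicate 1 peak. All other TNRC6B peaks start at 40661159 or later, so its low values and its place in this order rest on that peak. These spans include introns, and transcript lengths were not used here.

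**Figure D1:**
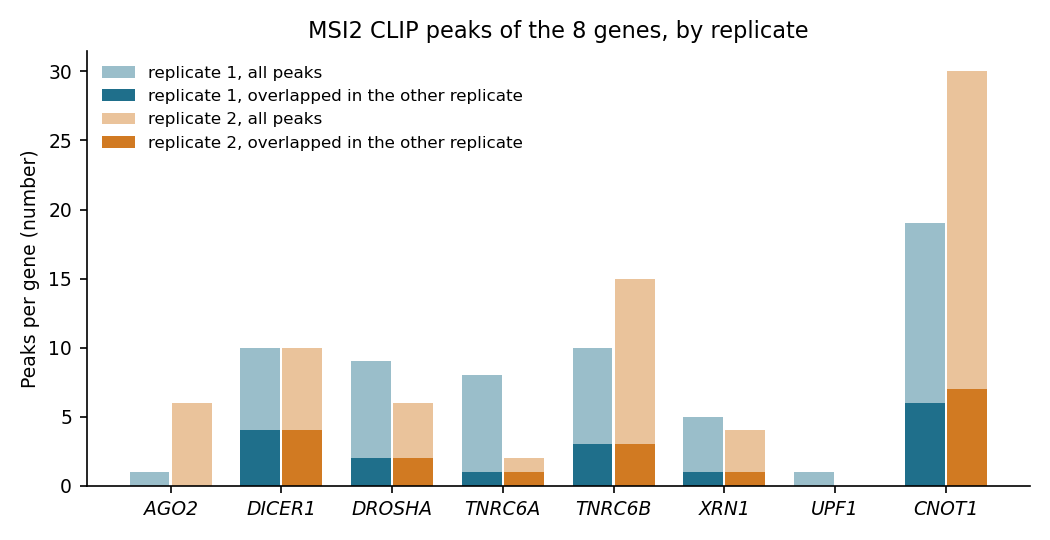
Number of MSI2 peaks (vertical axis) under each of the 8 genes, with replicate 1 in blue and replicate 2 in orange. The dark part of a bar counts peaks overlapped by a peak of the other replicate. CNOT1 has the tallest bars, at 19 and 30, and AGO2 and UPF1 have no dark part.

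Peaks that overlapped between the replicates on one strand, by at least 1 nt, were called shared. Of the peaks of the 8 genes, 17 of 63 in replicate 1 were shared, or 27.0% (95% Wilson interval 17.6% to 39.0%), against 35.7% of all peaks in that list. In replicate 2, 18 of 73 were shared, or 24.7% (16.2% to 35.6%), against 37.3% of all peaks. The intervals cover counting error only, and peaks of one gene are not independent. The interval of replicate 1 includes the value of its whole list, and that of replicate 2 ends below it. In replicate 2 this did not hold with touching peaks left out of both lists, an alternative chosen after seeing the data, where 18 of 57 member peaks were shared, or 31.6% (21.0% to 44.5%), against 40% of all peaks. Nor did it hold with peaks of a gene within 50 nt merged, at 17 of 58, or 29.3% (19.2% to 42.0%), against 39.1%. The same was true with peaks extended, without CNOT1, at a tally of 5 or more and in the strongest 10% by p. The interval did end below with a reciprocal overlap of 50%, at 23.4%, against 27.5% of all peaks. Counting midpoints within 50 nt as a match, it ended at 37.1%, against 37.9%, and in the stronger 50% by p at 45.4%, against 46.3%. In replicate 1 the interval ended below its list only at a tally of 5 or more, at 42.1%, against 43.7%. Among the 7 genes listed in both libraries, 6 had a shared peak, or 85.7%, against 71.9% of the 5552 gene IDs found in both. AGO2 was the exception. Genes were not matched for their number of peaks in this comparison.

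Few peaks of these genes were strong. The median tally was 4 in replicate 1 and 3 in replicate 2, against 4 in each whole list. Their highest tallies were 16 in replicate 1 and 11 in replicate 2, where the whole lists reached 92 and 106. Tallies of 10 or more made up 4.76% and 1.37% of the members' peaks, against 13.2% and 9.53% of all peaks, and the lowest tally, 3, made up 36.5% and 53.4%, against 35.7% and 45.3%. CNOT1 differed between the libraries, with a tally of 5 or more in 16 of 19 peaks in replicate 1 and 5 of 30 in replicate 2, or 84.2% and 16.7%, against 45% and 36.1% of all peaks. Strong peaks were shared more often in both the set and the lists. At a tally of 3, 4 of 23 member peaks were shared in replicate 1 and 7 of 39 in replicate 2, or 17.4% and 17.9%, against 11.9% and 15.5% of all peaks. At a tally of 6 to 9, 5 of 10 and 5 of 9 were shared, or 50% and 55.6%, against 54.9% and 64.9%. All 3 member peaks with a tally of 10 or more in replicate 1 were shared, as was the 1 in replicate 2, against 87.1% and 89.4% of such peaks in the lists. At a tally of 4 in replicate 1, 0 of 14 member peaks were shared (Wilson interval up to 21.5%), against 24.7% of all peaks. In replicate 2, 4 of 20 were shared at that tally, or 20% (8.07% to 41.6%), against 34.7%. At a tally of 5, 5 of 13 and 1 of 4 were shared, or 38.5% and 25%, against 35.1% and 45.7%.

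**Figure D2:**
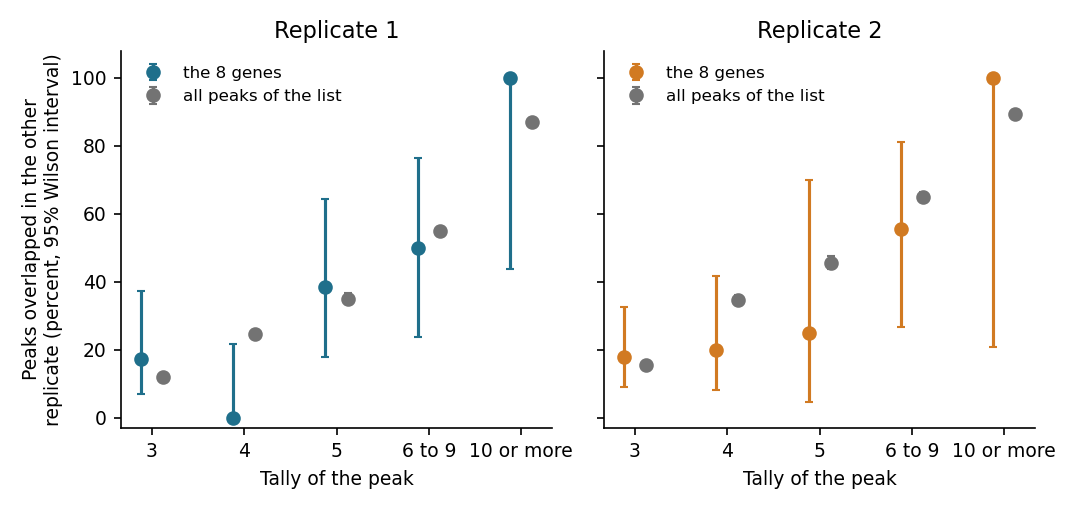
Percent of peaks overlapped in the other replicate (vertical axis, bars are 95% Wilson intervals) by tally class (horizontal axis), for the 8 genes in colour and for all peaks of the list in grey, with one panel per replicate. Over all peaks the shares climb with the tally, and for the 8 genes the intervals are wide. The class of tally 4 in replicate 1 has 0 of 14 shared, below the 24.7% of its list.

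The shared peaks of the 2 RNase III enzymes lay at opposite ends of their spans, while unshared peaks of both genes lay elsewhere too. DICER1 lies on the minus strand of chromosome 14, and its peaks ran from 95553848 to 95593070, so that low coordinates are the 3′ end. Within 5 kb of that end lay 5 of its 10 peaks in replicate 1 and 8 of its 10 in replicate 2, and all 4 shared peaks of each library were among them. The strongest pair by the tally of its weaker peak spanned 95556350 to 95556401 in replicate 1, with a tally of 12 (deposited p 2.59e-08), and 95556366 to 95556415 in replicate 2, with a tally of 8 (1.94e-05). The next pair covered 95554060 to 95554121 with a tally of 7 and 95554087 to 95554160 with a tally of 11. The third began at 95556737 in both libraries and ended at 95556800 with a tally of 16 in replicate 1, and at 95556776 with a tally of 6 in replicate 2. The tally of 16 was the highest of any member peak, with a deposited p of 1.27e-11, yet the same place had a tally of 6 in the other library. All 3 sites recurred, and the one with the highest tally was a different one in each library.

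Of the unshared DICER1 peaks, some lay close to a peak of the other library and others far away. A replicate 2 peak at 95554204 to 95554261 had a tally of 8 and was 27 nt from the nearest replicate 1 peak, which was narrow (11 nt) with a tally of 3. Away from the 3′ end, the 5 other replicate 1 peaks and the 2 other replicate 2 peaks had tallies of 3 or 4, and none was shared. At the 5′ end of the span, the libraries' closest peaks were 1141 nt apart.

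**Figure D3:**
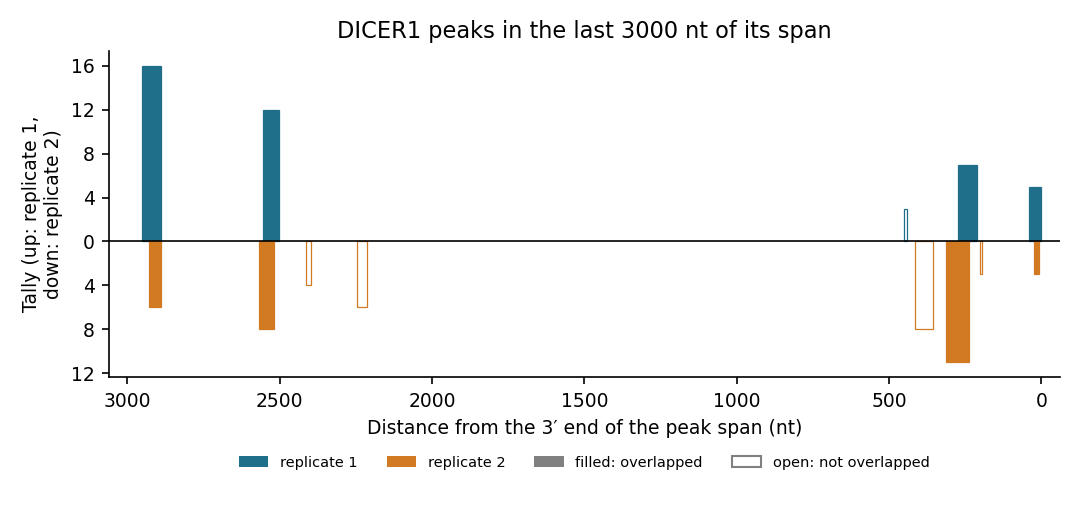
Tallies of DICER1 peaks (vertical axis, replicate 1 upward and replicate 2 downward) by distance from the 3′ end of the gene's peak span in nt (horizontal axis, 3′ end at right). Bar widths are the peak widths, filled bars are overlapped in the other replicate and open bars are not. The 4 filled places coincide, with tallies of 16 and 6 at the leftmost.

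DROSHA had its shared peaks at the other end. The gene is on chromosome 5, minus strand, and its peaks covered 31401455 to 31529211. Both pairs lay more than 125 kb from the 3′ end of a span of 128 kb. The first was a wide peak at 31526399 to 31526544 (146 nt, tally 9, deposited p 9.22e-05) in replicate 1, which contained the replicate 2 peak at 31526458 to 31526543 (86 nt, tally 8, 5.13e-05). Their short inner intervals, which the lists give within each peak, were centred 76 nt apart. The other pair lay at 31526787 to 31526825 with a tally of 3 and at 31526761 to 31526807 with a tally of 4. In replicate 1 a further 4 of the 9 DROSHA peaks lay within 10 kb of the 3′ end, with tallies of 3 to 5. Replicate 2 listed none within 20 kb of that end, and its nearest peak to the replicate 1 peak at 31409163 to 31409208 (tally 5) was 57125 nt away. So the 5′ site was listed in both libraries and the 3′ peaks in replicate 1 alone.

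AGO2, the protein that carries the microRNA, had no shared peak. Its 1 replicate 1 peak, at 141542109 to 141542160 on the minus strand of chromosome 8, had a tally of 4. The 6 peaks of replicate 2 all had a tally of 3, with widths of 5 to 44 nt, and spread from 141541734 to 141566270. One of them, at 141542080 to 141542101, ended 7 nt from the replicate 1 peak. Counting midpoints within 50 nt as a match gave it 1 shared peak in each library.

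The paralogous GW182 genes also differed from each other. TNRC6A, on the plus strand of chromosome 16, had peaks at both ends of a span of 36.1 kb and none between. In replicate 1, 3 of its 8 peaks fell between 24800931 and 24802939 and the other 5 between 24835127 and 24836977. In replicate 2 each end had 1 peak. The single pair was the 5′-most, at 24800931 to 24801005 with a tally of 5 and 24800926 to 24800978 with a tally of 4. At the 3′ end the replicate 2 peak, at 24835500 to 24835530 with a tally of 3, fell 132 nt from the nearest of replicate 1. The strongest unshared TNRC6A peak, at 24836330 to 24836383 in replicate 1, had a tally of 4.

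TNRC6B, on the plus strand of chromosome 22, had the longest span, 280 kb. The 5′ end of the span was set by 1 replicate 2 peak, at 40451117 to 40451167 (tally 3), 210079 nt from the nearest replicate 1 peak. Most TNRC6B peaks were packed at the 3′ end. Within 20 kb of that end lay 9 of 10 peaks in replicate 1 and 12 of 15 in replicate 2, including all 3 shared peaks of each. The pair at 40720871 to 40720913 had a tally of 3 in replicate 1, and its partner at 40720868 to 40720936 had a tally of 8 and a deposited p of 2.24e-05. The pairs at 40726866 to 40726893 and 40729512 to 40729547 had tallies of 3 in both libraries. Every TNRC6B pair therefore included a peak of the lowest tally in the lists. Further pairs of peaks narrowly missed each other. At 40661247 to 40661281 replicate 1 had a peak 45 nt from the replicate 2 peak at 40661159 to 40661201, far from the 3′ cluster. The strongest unshared peak by tally and then p, at 40730028 to 40730060 in replicate 2, had a tally of 5.

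CNOT1, the deadenylase scaffold, differed from DICER1 and TNRC6B in that its shared sites ran along its whole span of 66 kb, from 58554891 to 58620846 on the minus strand of chromosome 16. Its 6 shared peaks in replicate 1 lay at 0.0225, 9.30, 21.5, 26.3, 34.9 and 60.5 kb from the 3′ end. The strongest pair was at 58589765 to 58589813 with a tally of 9 in replicate 1 and at 58589769 to 58589813 with a tally of 6 in replicate 2, with inner intervals centred 3 nt apart. The next was at 58564156 to 58564217, with a tally of 11 and a deposited p of 3.51e-08 in replicate 1, and at 58564161 to 58564213, with a tally of 5 and 0.00113, in replicate 2. These sites were nearly the same intervals in the libraries, and both were stronger in replicate 1.

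Not every CNOT1 overlap was of that kind. The replicate 1 peak at 58576339 to 58576389 (tally 5) overlapped 2 replicate 2 peaks, by 25 nt at 58576332 to 58576363 (tally 3) and by 1 nt at 58576389 to 58576447 (tally 4). This is why 7 peaks of replicate 2 matched 6 of replicate 1. A pair at 58615321 to 58615370 (tally 6) and 58615350 to 58615371 (tally 4) had an equal weaker tally of 4. Around the strongest pair the libraries interleaved. Replicate 1 peaks at 58589155 to 58589190 (tally 6) and 58589343 to 58589376 (tally 5) alternated with replicate 2 peaks at 58589252 to 58589287 (tally 4) and 58589424 to 58589442 (tally 6), with gaps of 47 to 61 nt. The strongest unshared CNOT1 peak, at 58615829 to 58615880 in replicate 1, had a tally of 7. More of CNOT1's peaks were weak in replicate 2, where 12 of 30 had a tally of 3, against 2 of 19 in replicate 1, and its summed tallies were 116 and 107 in that order.

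**Figure D4:**
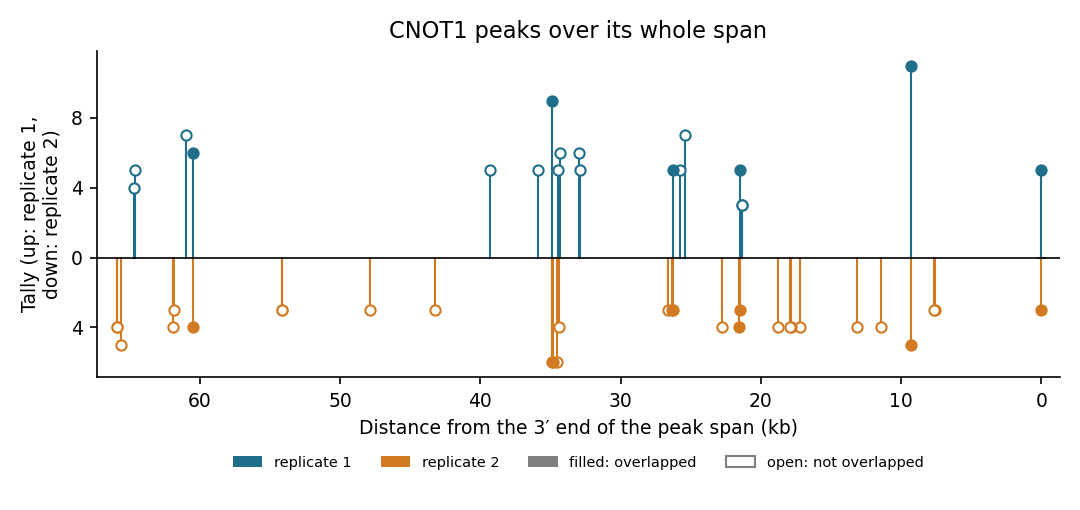
Tallies of CNOT1 peaks (vertical axis, replicate 1 upward and replicate 2 downward) by distance of the peak's midpoint from the 3′ end of the gene's peak span in kb (horizontal axis, 3′ end at right). Filled circles are overlapped in the other replicate and open ones are not. Filled circles occur from 0.0225 to 60.5 kb, and replicate 1 reaches a tally of 11 and replicate 2 a tally of 6.

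XRN1, on the minus strand of chromosome 3, had 1 pair, at the 3′ end of a span of 105 kb. It began at 142026086 in both libraries and ended at 142026139 with a tally of 7 in replicate 1, and at 142026110 with a tally of 3 in replicate 2. A stronger replicate 1 peak at 142026333 to 142026406 (tally 8, deposited p 1.63e-05) was 222 nt from the nearest peak of replicate 2. The XRN1 site with the highest tally was therefore listed in 1 library alone. UPF1, on the plus strand of chromosome 19, had the least: 1 replicate 1 peak at 18947303 to 18947344, with a tally of 4 and a deposited p of 0.00605. Since the lists hold tallies of 3 or more only, the lack of a UPF1 peak in replicate 2 does not show that no fragment was recovered there.

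Along their spans the 8 genes did not share one layout. Positions were taken from the midpoints of peaks in spans of 10 kb or more, leaving out peaks that set an end. Of the members' shared peaks in replicate 1, 6 of 14, or 42.9% (Wilson interval 21.4% to 67.4%), fell into the 3′-most 10% of the span, against 51.8% over all genes. In replicate 2 these were 8 of 16, or 50% (28.0% to 72.0%), against 52.6%. All 6 and all 8 belonged to DICER1, TNRC6B or, in replicate 2, CNOT1. In the 5′-most 10% lay 4 of 14 and 3 of 16, or 28.6% and 18.8%, against 7.71% and 7.79% over all genes. These were the peaks of DROSHA and CNOT1 and, in replicate 1, of TNRC6A. The peaks at each end come from 3 genes or fewer in each library, and the differences were not tested. Whether the peaks lie in exons, introns or untranslated regions was not analysed here.

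**Figure D5:**
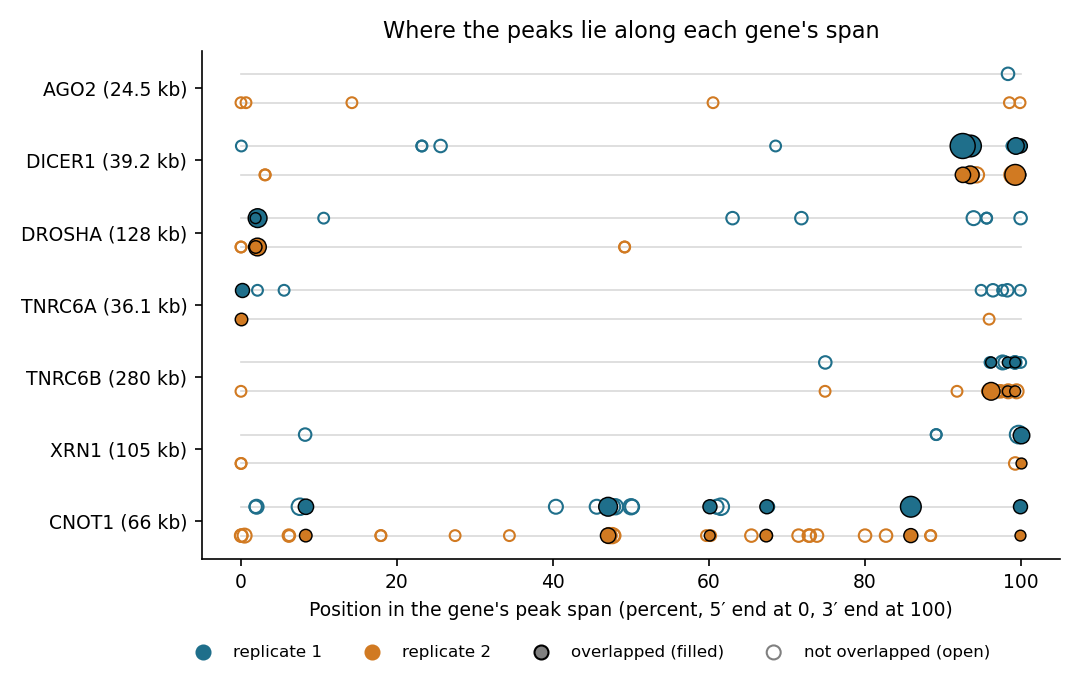
Midpoint of every peak (horizontal axis, percent of the gene's span between its first and last peak, 5′ end at 0) for the 7 genes with peaks in both replicates, with the span in kb beside the name. Circle area is proportional to the tally, filled circles are overlapped in the other replicate, and replicate 1 (blue) is drawn above replicate 2 (orange). Filled circles sit at the right for DICER1, TNRC6B and XRN1, at the left for DROSHA and TNRC6A, and along the line for CNOT1.

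Most matched peaks of these genes were stronger in replicate 1, as were most pairs in the lists. Between the inner intervals of the 18 member pairs the median distance was 13 nt, against 7 nt over the 9528 pairs of peaks under one gene ID. A distance of 10 nt or less was found in 8 member pairs (44.4%), against 65.2% of all pairs. The tally was higher in replicate 1 in 13 of the 18 pairs, higher in replicate 2 in 3 and equal in 2. Over all pairs it was higher in replicate 1 in 56.2% and in replicate 2 in 29.2%. The pairs with the higher tally in replicate 2 were in DICER1, DROSHA and TNRC6B.

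Unshared member peaks lay at distances much like those of unshared peaks in the lists. Within 100 nt of a peak of the same gene in the other replicate were 6 of 46 in replicate 1 and 9 of 55 in replicate 2, or 13.0% and 16.4%, against 12.6% and 12.8% of all unshared peaks. Within 1000 nt were 23 in each replicate, or 50% and 41.8%, against 41.1% and 40.2%. More than 5000 nt from the nearest peak of the same gene in the other replicate were 14 and 13, or 30.4% and 23.6%, against 24.4% and 24.9%. UPF1's peak has no such distance and is in none of these counts of near or far peaks. In the lists only 13998 of 16674 and 13257 of 15838 unshared peaks had such a distance, against 45 of 46 and 55 of 55 member peaks. The percentages of the lists are lowered by this, so they are not on the same base. Over peaks with a distance, the medians were 965 and 1258 nt for members, against 1066.5 and 1151 nt in the lists. Some peaks touched a neighbour of the same gene end to end, 6 of 63 in replicate 1 and 16 of 73 in replicate 2, or 9.52% and 21.9%, against 6.43% and 14.1% of all peaks. None of the touching member peaks was shared, against 23.5% and 14.1% of those in the lists, and the difference was not tested. Touching member peaks lie side by side at one place, so they stand for fewer places than their number. They came from DICER1, DROSHA and XRN1 in both libraries, and from CNOT1 (8 peaks) in replicate 2. No member interval was listed under a second gene ID, as 5.11% and 6.04% of all peaks were.

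Among all gene IDs, those with counts most like CNOT1's were ENSG00000153827, with 17 and 25 peaks of which 5 were shared in replicate 1, ENSG00000172534, with 20 and 29 (8 shared), and ENSG00000130816, with 14 and 32 (5 shared). Likeness was the Euclidean distance over log2(1 + count) of the peaks in each of the 2 libraries and of the shared peaks, and the distances were 0.37, 0.37 and 0.48. The files do not pair these IDs with names.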

How the data were processed

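CLIP-seq of MSI2 in NB4 cells was analysed from 2 peak lists, 1 for each replicate of 1 group. The submitters' processing notes name STAR 2.3.0e, Bowtie 1.0.0 and cutadapt, with build hg19. Trimming of poly(A) and adapters and removal of duplicates are recorded in the deposited file names. The sources used here do not name the peak caller. The p-value of each peak is as the authors deposited it, with no stated correction. The deposited peak name joins an Ensembl gene ID, a running number and the tally. The total reads are unknown, so precision is given by Wilson intervals, which cover counting error only.

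Starts were read as counted from 0, since touching peaks have equal ends and starts, and 1 was added. Gene names of the 8 IDs come with the definition of the set. The members, lists and rules were chosen with earlier results of these data known. For each gene the rule named the 3 pairs with the highest tally in the weaker replicate and the unshared peak with the highest tally, and the 3 gene IDs most like the member with the most shared peaks. A list of other pathway genes and a list of myeloid markers, both by symbol, were not analysed here, because 0 rows of the gene table used hold an Ensembl ID. The cell line's label was therefore not checked against markers. No test was made, as there was 1 group. Overlap and position calculations were tested on simulated data. The tools were pandas 2.3.3, NumPy 2.4.6, matplotlib 3.10.9 and SciPy 1.17.1 under Python 3.11.15. Alternatives covered the overlap rule, stricter lists, merged peaks, repeated intervals and the span. The values of replicate 2 in place of replicate 1, and of all replicate 1 member peaks, were also counted among them.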

Additional observations from a re-analysis of the deposited data

How the results depend on the processing

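Leaving out CNOT1 and leaving out touching peaks were chosen after seeing the data. Of 71 alternative values for the combined results, 43 stayed within the margin (1.5 times for counts, the Wilson interval for shares), as did 38 of 80 for peak counts of single genes. Most of the rest follow from the construction of the alternative. A reciprocal overlap of 50% left 10 shared member peaks in each replicate (15.9% and 13.7%, against 26.8% and 27.5% of all peaks) and removed XRN1's pair. Extension by 100 nt gave 27 and 30 (42.9% and 41.1%, against 48.5% and 49.9%) and added AGO2. The stronger 50% by p left 31 and 32 member peaks, 9 shared in each (29.0% and 28.1%, against 44.5% and 46.3%). The strongest 10% left 3 and 1, with 0 shared (0%) in 0 genes, and no position could be taken. Among all peaks 55.1% and 57.1% were then shared. A tally of 5 or more left 26 and 14 member peaks, 6 shared in each, in 3 genes (DICER1, DROSHA and CNOT1), or 23.1% and 42.9%, against 43.7% and 56.2% of all peaks. The share in the 3′-most 10% was then 0%. No TNRC6B peak stayed shared, and the remaining DICER1 peaks spanned under 10 kb and left the calculation. Without CNOT1, 11 of 44 and 11 of 43 member peaks were shared, or 25% and 25.6%, against 35.7% and 37.3% of all peaks. Without touching peaks, 29.8% and 31.6% of member peaks were shared, against 35.4% and 40% of all peaks. The values counted as without replicate 1 are the main values of replicate 2: 18 shared peaks, or 24.7%, in 6 genes. A shared peak needs both libraries, so nothing was left out there. The share in the 3′-most 10% was 50% for these shared peaks of replicate 2. Counted as without replicate 2 was the share of all replicate 1 member peaks, shared or not, on the span of replicate 1 alone. It was 36.7%, and is a different quantity from the share of shared peaks. These values fell within the margin but do not check the results with a replicate left out. No paired analysis was possible because there was only 1 group. A median tally of 4 and 3 among member peaks leaves most of them on very few reads, if tallies are reads.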

Other observations

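The deposited p of peaks with a tally of 3 tended to be lower where they were narrow. Among peaks with a tally of 3, those under 20 nt had a median p of 0.0214 in replicate 1 and 0.0209 in replicate 2, and wider ones 0.0266 and 0.0257. For the 8 genes the medians were 0.0207 and 0.0206 for the narrow peaks (7 of 23 and 13 of 39), and 0.0371 and 0.0261 for the wider ones. The running numbers in the peak names skipped 7 values before the last listed peak of a gene among the members in replicate 1 and 9 in replicate 2. TNRC6B accounted for 6 of the 7, and CNOT1 for 4 of the 9.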
